A study of Mus musculus with 620 samples.

Results

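White blood cells of aged mice given exenatide in the LT (long-term) cohort were compared with those of aged control mice of the same cohort. The members are the libraries of LT_A_Ex and LT_A_ctrl from circulating white blood cells, 10 libraries (5 in each group) of 620 in the series. Every library came from 1 animal and was sequenced in the batch labelled 1. Other libraries used beside them were 5 young controls of the same cohort (LT_Y_ctrl), 4 ST_A_Ex and 5 ST_A_ctrl libraries of another cohort, 8 YA_Ex and 8 YA_ctrl libraries of a further one, and the spleens of the same LT cohort (8 after exenatide, 9 aged controls, 8 young controls). The fit of the ST cohort, which shares 1 estimate of the spread, also held the groups labelled ST_A_rapa (4 libraries), ST_A_ctrl_KD (5), ST_A_Ex_KD (5) and ST_Y_ctrl (5), and the labels do not spell out rapa or KD. The labels used here give neither the strain, age, sex or dose of the mice nor what the controls received, and the 2 LT groups carry no genetic change in their labels. The white blood cells are a mixture that was not sorted, so fewer cells of a type and less RNA per cell cannot be told apart.

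Exenatide is a peptide agonist of the GLP-1 receptor, the incretin receptor of pancreatic islets and of several brain regions, which signals through the G protein Gs, cyclic AMP, protein kinase A and the exchange factor EPAC. Circulating leukocytes are chiefly neutrophils, monocytes, B cells, T cells and natural killer cells, and whole-blood preparations also carry platelets and red cell precursors. In mice and humans ageing is known to shift blood towards myeloid cells and memory T cells and away from naive lymphocytes.

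The LT libraries held 21.78 to 28.22 M counts (M stands for 1e+06), and 2 of the 10 stood apart. The first was B13, whose log2 values correlated more with the 5 aged controls (mean Pearson's r across genes 0.980) than with the other 4 exenatide libraries (0.963). Those 4 had a mean r of 0.969 to 0.977 with their own group and of 0.950 to 0.972 with the controls. Among the 130 genes that passed the test below, B13 lay inside the range of the aged controls for 38, against 1 for B28 and 0 for B14, B25 and B26. Those genes were chosen by the difference between these same libraries, so low counts in the other 4 are largely built in. The share over all genes is not given. The title and the description of the B13 white blood cell library name the same animal. In liver, however, the descriptions of B13 and B14 are crossed against their titles, and whether the white blood cell library labelled B13 comes from an exenatide animal was not tested. Every value given with or without B13 carries that doubt. The blood of B13 correlated best with the spleen of the aged control B15, and the blood of B15 with the spleen of B13. These are correlations of deviations from the means of the labelled groups. Only 5 of the 10 animals correlated best with their own spleen, so these values do not settle which animal a single library came from. The second was the aged control B15, in which 30 genes reached at least 4 times the highest level of any other aged library, against 5 or fewer in each of the others. As for cell identity, the neutrophil receptor gene Csf3r (1285 to 3196 CPM, counts scaled to the TMM-normalised library size, over the 10 libraries), the B cell gene Cd79a (202 to 586 CPM) and the T cell gene Cd3e (69.8 to 237 CPM) were present in every library. The platelet gene Ppbp (860 to 5060 CPM) and haemoglobin genes (2.62 to 8.75% of counts) were present too. Liver cell markers were at or near 0, with 4 of 8 at 0 in all 15 LT libraries and a sum of at most 2.42 CPM.

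After exenatide 110 genes rose and 20 fell among 14862 tested (edgeR's quasi-likelihood test, Benjamini-Hochberg adjusted p under 0.05), which is 0.74% and 0.135% of the genes tested. The genes that rose included 9 genes of cytosolic ribosomal proteins and single genes such as Timm13, Lamtor2, Pfdn6 and Crip1, and their log2 fold changes ran from 0.34 to 1.54 with a median of 0.64. Those that fell included the EPAC gene Rapgef3, the calcium channel gene Cacna1h and the DNA sensor Aim2, with log2 fold changes from -1.71 to -0.29. In 90 of the 130 genes the 5 exenatide values lay wholly above or below the 5 control values, which held for 2.58% of all genes tested. The adjusted p-values all lay between 0.0425 and 0.0496, while 4014 genes had an unadjusted p under 0.05.

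These calls rested on the particular set of animals. Leaving out 1 aged control at a time left 0 called genes without B15, B24, B34 or B39 and 106 without B27. Leaving out 1 exenatide animal left 0 called genes without B25, B26 or B28 and 2 without B14. Without B13, in contrast, 1767 genes rose and 1542 fell among 15027 tested, 11.8% and 10.3%, and all 130 genes were among them. The 4 against 5 comparison without B13 is given below beside the full one, as a description, since that animal was singled out after its values were seen. Its p-values are therefore more favourable than those of a set chosen without the values. Without B13 the groups did not overlap in 129 of the 130 called genes and in 13.4% of all genes tested. For a called gene, a lack of overlap without B13 was therefore nearly fixed beforehand. A fit of only the 2 groups, without the young controls, called 0 genes with all 10 libraries and 1629 without B13.

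**Figure D1:**
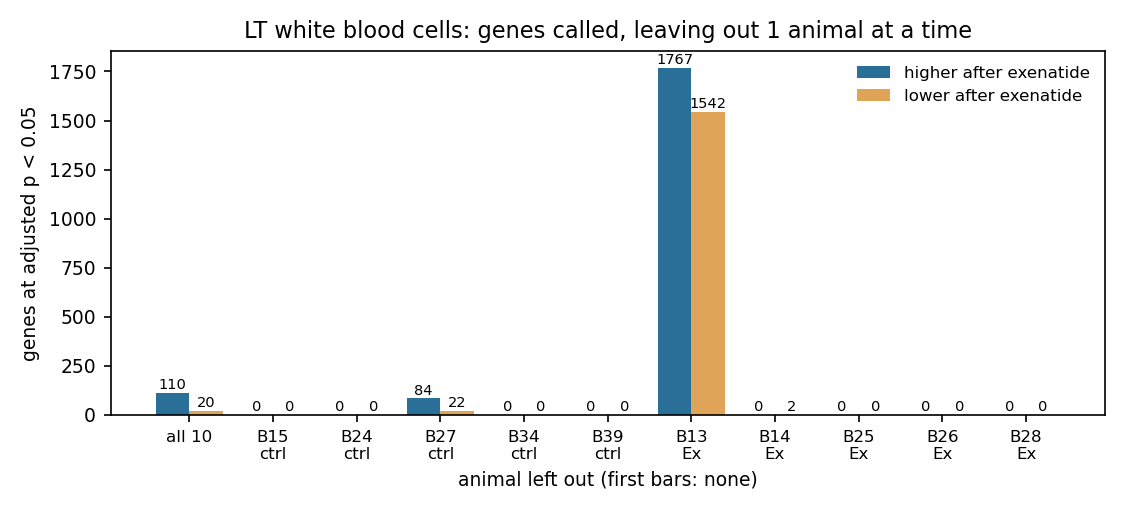
Genes called at an adjusted p under 0.05 (y axis) with all 10 libraries and with each animal left out in turn (x axis; ctrl, aged control; Ex, exenatide), split into genes higher and lower after exenatide. The full set gave 110 and 20 genes, the set without B13 gave 1767 and 1542, and 7 of the 10 omissions gave 0.

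Timm13, which rose, encodes a small chaperone that carries precursors across the space between the mitochondrial membranes. In the aged controls B15, B24, B27, B34 and B39 it stood at 11.3, 8.69, 9.65, 8.35 and 8.43 CPM, and after exenatide in B13, B14, B25, B26 and B28 at 12.4, 29.2, 24.2, 19.6 and 17.8 CPM. Each exenatide value was above each control value, with B13 the lowest, and the log2 fold change was 1.15 ± 0.18 (SE; adjusted p = 0.0425 by edgeR's quasi-likelihood test). Romo1, a small protein of the inner mitochondrial membrane, was at 2.63 to 4.09 CPM in the controls and 4.26 to 10.9 CPM after exenatide (1.22 ± 0.22), again with B13 lowest.

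Pfdn6, a subunit of prefoldin, which hands new actin and tubulin chains to the chaperonin, measured 7.24, 6.48, 9.65, 5.67 and 4.46 CPM in the controls and 8.62, 25, 21.3, 18.6 and 15.2 CPM after exenatide, in the same order of animals. The 4 exenatide animals other than B13 were above all controls, while B13 lay among them. The log2 fold change was 1.41 ± 0.25 with all animals and 1.58 ± 0.19 without B13. Among co-chaperones of Hsp90, Fkbp4 (34.4 to 41.8 CPM in the controls, 47.6 to 63.0 after exenatide) and Stip1 (32.8 to 40.9 and 44.9 to 59.9 CPM), showed no overlap between groups. They were the 2 of 17 tested genes of the heat shock and chaperone list that passed the test, beside 0.74% of all genes that rose, and none fell. Without B13 the count was 7 up (41.2%, beside 11.8% of all genes) and 0 down.

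Lamtor2 encodes part of the Ragulator complex, which holds mTORC1 on lysosomes. It was at 14.3, 11.9, 13.4, 14.3 and 9.89 CPM in the controls and at 16.2, 34, 32, 24.1 and 24.4 CPM after exenatide, a log2 fold change of 1.04 ± 0.17. Again no exenatide value fell within the control range and B13 was the nearest to it. Of the 19 tested genes of the mTOR pathway and sestrin list 0 passed the test, with a median log2 fold change of 0.03 against -0.02 over all genes.

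The largest rise of a gene above the level used for naming was that of Crip1, a small LIM-domain protein. The controls had 55, 29.1, 44.6, 39.2 and 30.4 CPM and the exenatide animals 51.3, 169, 198, 72.7 and 86.5 CPM. The 4 animals other than B13 were above all controls and differed among themselves by more than the controls did. The log2 fold change was 1.54 ± 0.32, and 1.73 ± 0.28 without B13. Other large rises were those of Naprt, which makes NAD from nicotinic acid (1.30 ± 0.28), Renbp, a sugar epimerase (1.30 ± 0.27), Naa38, a subunit of an N-terminal acetyltransferase (1.24 ± 0.28), Trip6, a LIM-domain adaptor of focal adhesions (1.22 ± 0.24), and Hypk, a partner of another N-terminal acetyltransferase (1.27 ± 0.26). In Naprt, Renbp and Romo1 the groups did not overlap, while in Hypk, Naa38 and Trip6 B13 alone lay inside the control range. Hypk shares 52% of its annotated exon bases with the neighbouring genes Serf2 and Serinc4, so its count is uncertain.

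Among the 5 genes with the smallest adjusted p of those that rose, 2 belong to chromatin remodellers. Tfpt, of the INO80 complex, stood at 4.01 to 5.22 CPM in the controls and 5.64 to 12.6 CPM after exenatide (1.09 ± 0.18), and Bcl7c, of the SWI/SNF family, at 6.93 to 9.52 and 10.5 to 21.3 CPM (0.99 ± 0.17). Grhpr, a glyoxylate reductase, was the tightest of them. Its controls lay at 5.07, 4.88, 4.65, 4.45 and 5.64 CPM and its exenatide animals at 6.67, 8.23, 8.02, 8.43 and 7.58 CPM, and B13 was only a little below the others (0.66 ± 0.11). Among the 7 called genes whose annotated exons lie over 50% in other genes were Rpl35, Hypk, Snrpf and Nr2f6. Chtf8 and Derpc, 2 more of the 110, are overlapping genes that share the fold change of 0.37, and the counting was not stated to use strand.

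**Figure D2:**
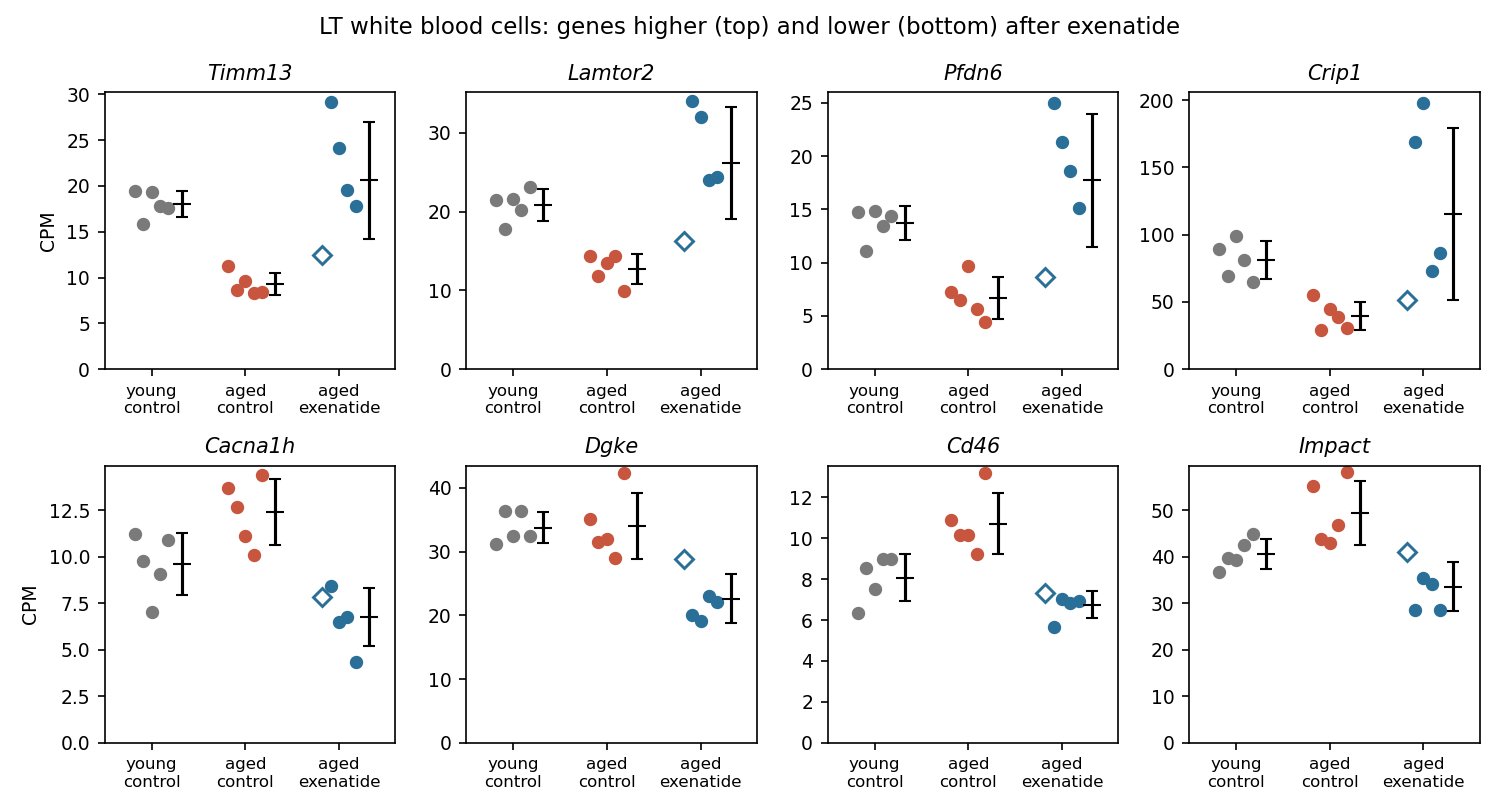
CPM (y axis, linear from 0) of 4 genes that rose (top) and 4 that fell (bottom) after exenatide in LT white blood cells, 1 point for each animal in the young controls, aged controls and exenatide group, with mean and SD beside each group. The open diamond is B13, which is the exenatide animal nearest to the aged controls in 7 of the 8 panels (in Cacna1h it is B14).

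The genes that fell were fewer, with a median log2 fold change of -0.63. Rapgef3 encodes EPAC1, which cyclic AMP activates to switch on the small GTPase Rap. The controls had 2.13, 2.40, 2.33, 2.64 and 2.6 CPM and the exenatide animals 1.13, 1.78, 1, 1.37 and 0.977 CPM, with no overlap. The log2 fold change was -0.94 ± 0.20 (adjusted p = 0.0486, edgeR's quasi-likelihood test) and -0.90 ± 0.22 without B13, which here was not the animal nearest to the controls. Rapgef3 was the 1 called gene of the incretin axis list, of which 6 genes were tested (16.7%), beside 0.135% of all genes that fell. That share rests on a single gene at a low level and describes the gene, not its list. Without B13 2 of the 6 fell (Rapgef3 and Prkacb), beside 10.3% of all genes.

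Glp1r itself, the receptor of the drug, was at or near the limit of detection. In the 5 exenatide libraries it had 3, 1, 0, 1 and 1 counts (B13, B14, B25, B26, B28), and in the aged controls 191, 1, 0, 4 and 6 counts (B15, B24, B27, B34, B39). The 191 counts of B15 equal 7.39 CPM, and no other library exceeded 0.243 CPM. All 5 young libraries had 0 counts, which allows at most 0.138 CPM (3 counts of the smallest total, counting error only).

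Cacna1h, a T-type calcium channel, stood at 13.7, 12.7, 11.1, 10.1 and 14.4 CPM in the controls and 7.85, 8.40, 6.47, 6.78 and 4.33 CPM after exenatide (-0.87 ± 0.17). All exenatide values were below all control values and B13 lay near the middle of its group. Dgke, a diacylglycerol kinase, had 35.1, 31.5, 31.9, 29.1 and 42.3 CPM against 28.8, 20.1, 19.1, 23 and 22 CPM (-0.59 ± 0.12), and B13 came within 0.3 CPM of the lowest control. Cd46, a complement regulator, fell from a range of 9.23 to 13.2 CPM to one of 5.65 to 7.34 CPM (-0.67 ± 0.13). Impact, an inhibitor of the amino acid sensor kinase GCN2, fell from 42.9 to 58.1 CPM to 28.5 to 41 CPM (-0.56 ± 0.12).

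Slc14a1, the urea transporter of red cells and their precursors, fell by 0.71 on the log2 scale (28.7 to 49.0 CPM in the controls, 18.1 to 26.3 CPM after exenatide), while of the 24 tested erythroid genes 0 passed the test and their median log2 fold change was 0.24. Btbd8 (-0.85 ± 0.18), the fatty acyl-CoA reductase Far2 (-0.54 ± 0.12), the centrosome gene Cep70 (-0.50 ± 0.10) and Aim2, which senses DNA in the cytosol (-0.35 ± 0.08), also separated the groups without overlap. Olfr1393, an odorant receptor gene, fell by 1.71 on the log2 scale at a very low level (0.665 to 1.42 CPM in the controls, 0.154 to 0.463 CPM after exenatide).

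Cytosolic ribosomal proteins build the 2 ribosome subunits, and many of their messages start with a run of pyrimidines through which mTORC1 controls their translation. Of the 51 genes in the list of cytosolic ribosomal proteins, all tested, 9 rose and 0 fell, 17.6%, beside 0.74% of all genes that rose. The list was chosen with earlier results of these data known. It does not hold the whole family, and ribosomal protein genes outside it were not counted in that share. The 9 genes were Rpl8, Rpl13, Rpl15, Rpl23, Rpl27, Rpl35, Rplp2, Rps15 and Rps23. The median of the 51 was 0.33 and 48 of them had a positive log2 fold change. Without B13 30 rose (58.8%, beside 11.8% of all genes) and 0 fell, with a median of 0.40.

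The stretches around the annotated start of several of these genes are shown because the genes moved together. The short pyrimidine word CTTTC was searched anywhere in them. A match need not be that run, and a stretch without the word may still hold such a run. In Rpl13 the match lies before the annotated start, outside the annotated message, and so does the first of the 2 matches in Rpl35. They cover 40 bases before the start and 20 from it on, 5′ to 3′ on the gene's strand, from RefSeq on GRCm38.p6, which is not the build the submitters name (GRCm39). Capitals mark each CTTTC on that strand. Cd46, which fell, is added for comparison, and its stretch holds CTTTC too.
Rpl13, chr8:123102310-123102369, plus strand: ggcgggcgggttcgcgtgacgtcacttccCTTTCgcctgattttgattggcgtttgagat
Rpl15, chr14:18270967-18271026, minus strand: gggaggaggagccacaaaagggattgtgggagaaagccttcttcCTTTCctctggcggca
Rpl35, chr2:39005112-39005171, minus strand: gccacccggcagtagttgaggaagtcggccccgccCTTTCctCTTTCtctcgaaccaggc
Rplp2, chr7:141447611-141447670, plus strand: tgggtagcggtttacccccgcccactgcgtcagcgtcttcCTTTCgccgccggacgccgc
Rpl27, chr11:101442205-101442264, plus strand: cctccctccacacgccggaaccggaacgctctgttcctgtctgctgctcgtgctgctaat
Rps23, chr13:90923082-90923141, plus strand: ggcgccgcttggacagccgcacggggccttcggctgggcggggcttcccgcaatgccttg
Cd46, chr1:195092229-195092288, minus strand: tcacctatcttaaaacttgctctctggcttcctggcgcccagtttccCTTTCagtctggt

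Of the 9 called ribosomal protein genes 8 had a stretch in the RefSeq table, all but Rpl8, and 4 of the 8 held CTTTC on the gene's strand, beside 9.42% of 27025 genes. Its reverse complement GAAAG was held by 1 of the 8, beside 8.34% of genes. Among the 91 of 110 genes that rose and had a stretch, 11% held CTTTC and 24.2% held CTTCC, a word that can overlap it, beside 14.8% of all genes for CTTCC. On the other strand GGAAG, the reverse complement of CTTCC, was held by 27.5% of them beside 16% of all genes, so the higher share was not particular to the gene's strand. For the 20 genes that fell, and for the 51 genes of the ribosomal protein list, fewer than 80% had a stretch (15 and 39), so that check is void. Of those 39 ribosomal protein genes, called or not, 13 held CTTTC (33.3%). The word was therefore common in the list and does not mark its called genes. A match describes the letters only.

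Rpl15, whose stretch holds CTTTC just inside the annotated start, measured 160, 166, 191, 148 and 156 CPM in the controls and 201, 297, 301, 251 and 231 CPM after exenatide (0.64 ± 0.11, adjusted p = 0.0425 by edgeR's quasi-likelihood test). Rps23, whose stretch lacks CTTTC, measured 300, 275, 357, 264 and 279 CPM and 369, 614, 566, 493 and 435 CPM (0.75 ± 0.14). In both genes all exenatide values were above all control values and B13 was the lowest of its group. Rpl35 had 147, 166, 184, 107 and 101 CPM in the controls and 148, 323, 308, 273 and 256 CPM after exenatide (0.89 ± 0.20), so that B13 alone overlapped the controls. Of the 9 genes, Rpl15, Rpl27 and Rps23 showed no overlap with all animals, and all 9 showed none without B13.

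**Figure D3:**
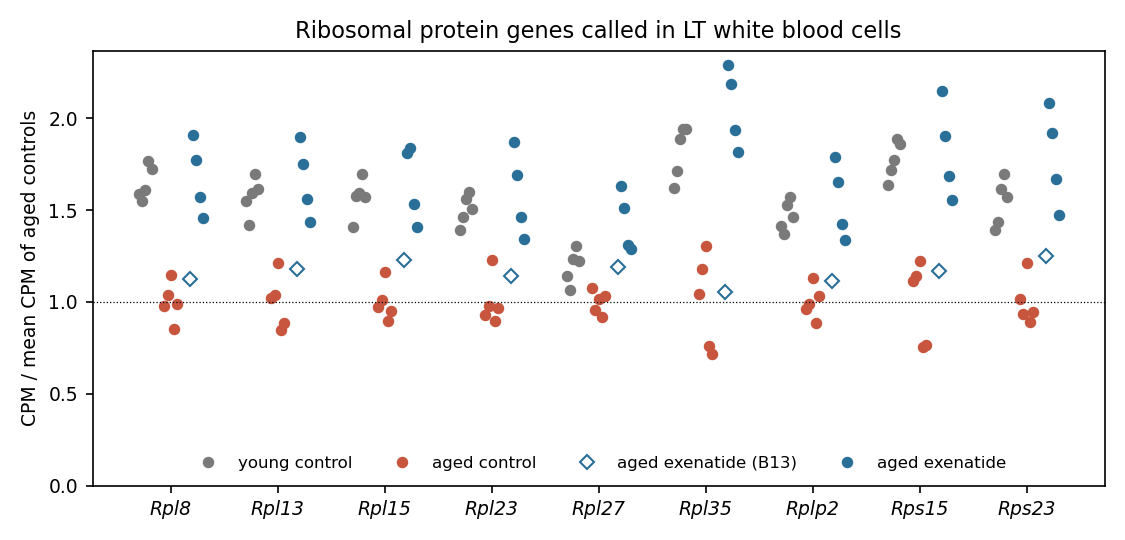
CPM of the 9 called ribosomal protein genes divided by the mean CPM of the aged controls (y axis, linear from 0; dotted line at 1), 1 point for each animal of the 3 LT groups. The 4 filled exenatide points of each gene lie above all aged controls, and the open diamond, B13, lies just above or within them.

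Nuclear genes of oxidative phosphorylation, which encode subunits of the respiratory chain and ATP synthase, also had a positive median. Of 39 tested 1 rose (Atp5d, a subunit of ATP synthase, 55.2 to 70.7 CPM in the controls and 72.0 to 116 CPM after exenatide, 0.57 ± 0.12) and 0 fell, with a median of 0.30. That is 2.56% of the list, beside 0.74% of all genes that rose, and rests on a single gene. Without B13 20 rose (51.3%, beside 11.8% of all genes) and 0 fell. Cox5b and Ndufa8, subunits of complexes IV and I, missed the threshold with all animals (adjusted p = 0.054 and 0.0539, edgeR's quasi-likelihood test) at log2 fold changes of 0.84 ± 0.20 and 0.65 ± 0.15. Pfkl, the liver-type phosphofructokinase of glycolysis, rose from 36.7 to 38.9 CPM to 41.6 to 62.4 CPM (0.54 ± 0.09), 1 of 23 tested glycolysis and hypoxia genes, and Acadvl, which starts the oxidation of very long fatty acids, from 31.1 to 34.4 CPM to 34.7 to 51.7 CPM (0.45 ± 0.10), 1 of 16 tested fatty acid oxidation genes. These shares (4.35% and 6.25%, beside 0.74% of all genes) rest on 1 gene each and describe the gene, not its list. Acadvl shares 42.9% of its annotated exon bases with the neighbouring gene Dvl2, so its count is uncertain. Of 27 proteasome genes 0 passed the test with all animals (median 0.21) and 8 rose (29.6%, beside 11.8% of all genes) and 0 fell without B13.

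Of the 47 lists of cell types and pathways, 46 had tested members and 6 had a member that passed the test with all animals. No member of a cell-type list was among them. T cell markers had a median log2 fold change of -0.47, and 0 of 22 passed the test. Cd3e, a signalling chain of the T cell receptor, stood at 237, 108, 126, 136 and 187 CPM in the controls and at 160, 76.2, 69.8, 95.8 and 86.7 CPM after exenatide (-0.70 ± 0.24, adjusted p = 0.105 by edgeR's quasi-likelihood test). The 4 exenatide animals other than B13 were below every control. Without B13 11 of the 22 fell (50%, beside 10.3% of all genes) and 0 rose. Among the 11 were Cd28, a costimulatory receptor (-0.98 ± 0.19), Cd3e (-0.95 ± 0.21), Cd3g (-0.85 ± 0.22) and Cd5 (-0.94 ± 0.28).

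Effector and memory T cell genes had a median of -0.58 with all animals and 0 of 20 passed the test. Without B13 5 fell (25%, beside 10.3% of all genes) and 0 rose, including Tox, a transcription factor of chronically stimulated T cells (-2.20 ± 0.59), Tigit (-2.37) and Pdcd1, which encodes the checkpoint receptor PD-1 (-2.88 ± 0.87). B15 bears on these values. Pdcd1 was at 56 CPM in B15 and at 1.77, 3.80, 6.45 and 3.89 CPM in the other controls, against 8.16 CPM in B13 and 1.55 to 2.61 CPM in the other exenatide animals, so that apart from B15 and B13 the 2 ranges still overlapped.

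Lists of neutrophil and monocyte genes had positive medians, while those of eosinophil and basophil markers had medians of -0.12 and -0.39. Neutrophil granule genes, which are transcribed mainly in immature neutrophils, had a median of 0.90 with all 12 tested genes positive and 0 called, and without B13 6 rose (50%, beside 11.8% of all genes) and 0 fell. Prtn3, the granule protease proteinase 3, was at 0.464, 0.577, 1.02, 0.831 and 0.284 CPM in the controls and at 0.359, 5.88, 9.02, 3.99 and 8.42 CPM after exenatide (3.15 ± 0.76, adjusted p = 0.0565; 3.45 ± 0.62 without B13). Chil3, a chitinase-like protein, was at 22.1 to 157 CPM in the controls, 73.0 CPM in B13 and 367 to 594 CPM in the other exenatide animals. For Camp and Ngp, which encode granule proteins, 1 animal carried much of the mean: B28 had 18.3 and 154 CPM, and the other exenatide animals at most 1.65 and 11.4 CPM. Classical monocyte markers had a median of 0.86, 0 of 14 called, and 6 up (42.9%) and 0 down without B13, among them Csf1r, the receptor for M-CSF (1.11 ± 0.32), Klf4 (1.04 ± 0.29), Ctss, a lysosomal protease (0.94 ± 0.26), and Cybb, the catalytic part of the NADPH oxidase (0.76 ± 0.24).

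Neutrophil surface and effector genes had a median of 0.35 and 0 of 18 passed the test with all animals (without B13 1 rose, Ly6g, which is 5.56% beside 11.8% of all genes). S100a8, an abundant calcium-binding protein of neutrophils, was at 663 to 1968 CPM in the controls and 536 to 3412 CPM after exenatide, so the groups overlapped and B13 had the lowest value of all 10. B cell markers had a median of -0.05, and Cd79a stood at 352 ± 124 CPM (SD, n = 5) in the controls and 431 ± 110 CPM after exenatide. None of the 21 B cell markers passed the test in either fit. Of 18 natural killer cell markers 0 passed the test with all animals (median -0.04) and without B13 1 fell (Il2rb), a share of 5.56% that lies below the 10.3% of all genes. MHC class II genes, which present antigen on B cells and myeloid cells, had a median of 0.25, with 0 of 10 called, and 3 up (30%, beside 11.8% of all genes) and 0 down without B13 (H2-DMb1, H2-Ab1 and H2-DMa).

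Platelet and megakaryocyte genes overlapped between the groups. Ppbp, the platelet basic protein, was at 1554, 2733, 5060, 4559 and 3671 CPM in the controls and at 3785 CPM in B13, against 1372, 860, 1230 and 2675 CPM in B14, B25, B26 and B28. The summed level of the 20 platelet genes ran from 13250 to 41130 CPM in the controls and from 8137 to 35780 CPM after exenatide, and the highest of the latter was B13. B28 (23540 CPM) and B14 (14060 CPM) also lay within the control range, and B25 (8137 CPM) and B26 (11990 CPM) below it. Of the 20 genes 0 passed the test with all animals (median -0.61) and 5 fell without B13 (25%, beside 10.3% of all genes), Gp6 and Ppbp among them.

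The other markers that define cell types gave these ranges. The B cell gene Ms4a1 stood at 165 to 363 CPM in the controls and 171 to 308 CPM after exenatide. The T cell coreceptor genes Cd4 and Cd8a stood at 68.3 to 253 CPM in the controls and 37.3 to 128 CPM after exenatide, and at 118 to 185 CPM in the controls and 85.3 to 180 CPM after exenatide. The natural killer cell receptor gene Ncr1 stood at 12.4 to 47.8 CPM in the controls and 13.7 to 55.7 CPM after exenatide, and the monocyte genes Ly6c2 and Treml4 at 95.9 to 228 CPM in the controls and 132 to 236 CPM after exenatide, and at 28.3 to 65.1 CPM in the controls and 43.2 to 153 CPM after exenatide. The platelet chemokine gene Pf4 stood at 678 to 2543 CPM in the controls and 392 to 1652 CPM after exenatide. The haemoglobin genes Hba-a1 and Hbb-bs and the haem synthesis gene Alas2 stood at 11810 to 47870 CPM in the controls and 12120 to 37290 CPM after exenatide, at 9538 to 41270 CPM in the controls and 10910 to 34010 CPM after exenatide, and at 1057 to 4023 CPM in the controls and 955 to 3679 CPM after exenatide. In all 10 of these genes the groups overlapped.

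The mitochondrial ribosomal RNAs moved with the same animals. mt-Rnr1 was at 5557, 11020, 18940, 20370 and 11530 CPM in the controls, at 14560 CPM in B13, and at 4259, 2284, 3968 and 4341 CPM in B14, B25, B26 and B28. The 5 young controls had 1879 to 5340 CPM. Together mt-Rnr1 and mt-Rnr2 took 1.75 to 5% of counts in the controls, 3.79% in B13 and 0.714 to 1.41% in the other exenatide libraries, although the libraries were made from poly(A) RNA. The part of these RNAs, of platelets and of the share of each white cell type in the ribosomal, mitochondrial and chaperone results was not tested.

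**Figure D4:**
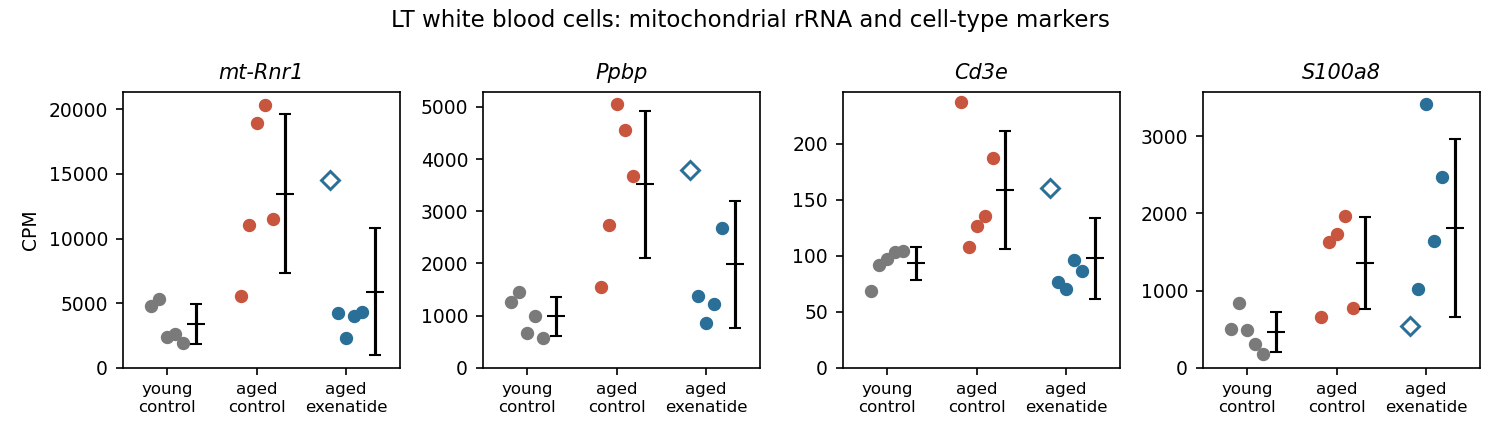
CPM (y axis, linear from 0) of mt-Rnr1, the platelet gene Ppbp, the T cell gene Cd3e and the neutrophil gene S100a8 in LT white blood cells, 1 point for each animal, with mean and SD beside each group. The open diamond, B13, lies within the range of the aged controls for mt-Rnr1, Ppbp and Cd3e and below them for S100a8.

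The called genes had other lengths and base compositions than the genes tested. The longest annotated transcript of the genes that rose had a median of 2168 bases and 56.8% G and C (109 of 110 matched), and that of the genes that fell 4204 bases and 42.9% (17 of 20 matched). Over all genes tested the medians were 3192.5 bases and 49.6%. When a smooth trend of each library on transcript length and GC content was removed, 0 genes passed the test with all animals. The 109 and 17 matched genes all kept their direction, a weak check, since they had been chosen from the same counts. The medians of the ribosomal and oxidative phosphorylation lists were 0.26 and 0.28, beside 0.33 and 0.30 before. Without B13 the same correction left 1374 genes up and 821 down (9.9% and 5.91% of those tested), and 98 of the 130 genes were among them. The ribosomal list then had 24 genes up (47.1%) and 0 down, oxidative phosphorylation 19 (48.7%) and 0, and T cell markers 0 and 8 (36.4%). Grhpr, Cd46, Irf3 and Rpl27 were among those that then missed the threshold (adjusted p = 0.0751, 0.08, 0.0749 and 0.0643, edgeR's quasi-likelihood test).

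Age is the background against which the drug was given. Between aged and young controls 2336 genes rose and 1787 fell with age, 15.7% and 12% of those tested (2067 and 2497 when haemoglobin genes were left out before normalisation). This comparison shares the aged controls with the drug comparison, so each gene's values are set side by side and no likeness between the 2 is computed. The aged controls enter the 2 with opposite sign. Opposite directions are therefore partly built in, in particular for genes called after exenatide, and do not show that the drug reversed an age change. The ribosomal protein list had 0 up and 23 down of 51 with age (median -0.31), beside 9 up and 0 down after exenatide (median 0.33). Timm13 was at 15.9 to 19.5 CPM in young controls and fell with age by 0.96 ± 0.18, and Pfdn6 was at 11.1 to 14.8 CPM and fell by 1.04 ± 0.24. Rpl8 was at 826 to 943 CPM in young controls, 453 to 612 CPM in aged controls, 601 CPM in B13 and 776 to 1018 CPM in the other exenatide animals.

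Lists of cell types had these values, beside 15.7% of all genes that rose with age and 12% that fell. Neutrophil surface and effector genes had 13 up and 0 down of 18 with age (median 1.35) and a median of 0.35 after exenatide. B cell markers had 0 up and 17 down of 21 with age (median -0.73) and a median of -0.05 after exenatide. Platelet genes had 19 up and 0 down of 20 with age (median 1.83) and a median of -0.61 after exenatide. Effector and memory T cell genes had 14 up and 0 down of 20 with age (median 1.52) and a median of -0.58. Rapgef3, Slc14a1 and Dgke did not pass the test for age (log2 fold changes -0.43, -0.13 and 0.01), so their lower levels after exenatide lay below those of both control groups on average.

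**Figure D5:**
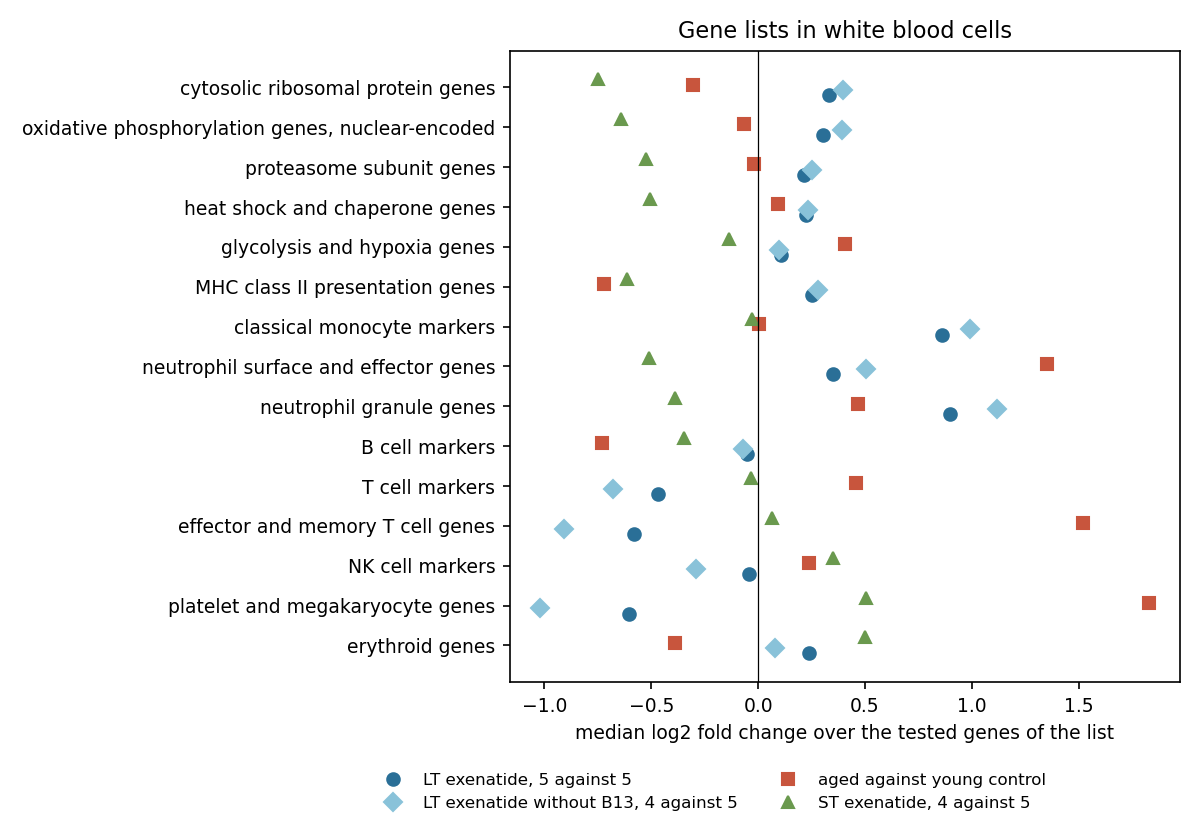
Median log2 fold change (x axis) over the tested genes of 15 lists (y axis) in white blood cells, for LT exenatide with all animals and without B13, for aged against young LT controls, and for ST exenatide. Ribosomal protein genes stood at 0.33, 0.40, -0.31 and -0.75, and the LT drug and age values share the aged controls.

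The ST cohort, with other animals and another sequencing batch, gave values of the opposite sign for these genes. There 503 genes rose and 508 fell after exenatide, 3.31% and 3.34% of 15190 tested (384 and 585 without haemoglobin genes). Of the 130 LT genes 129 were tested in ST and 4 of them had the LT direction. None was called in that direction, while 31 were called in the opposite one, 23.8% of the LT genes and 3.07% of the ST genes. Across 14602 genes the log2 fold changes of the 2 cohorts had a Pearson's r of -0.47, a value across genes, which are not independent and share their length and base composition between cohorts. Timm13 fell by 1.45 ± 0.38 in ST, Lamtor2 by 1.19 ± 0.31 and Crip1 by 1.78 ± 0.47, while Cd46 rose by 1.13 ± 0.28 and Impact by 0.70 ± 0.18. The ribosomal protein list had 0 up and 3 down of 51 and a median of -0.75.

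The ST calls also rested on single animals. A fit of the 2 ST groups alone called 0 genes, and the counts without single animals ran from 48 (without E31) to 1809 (without E32). The genes that fell in ST were short and rich in G and C (medians 1914 bases and 55.5%) and those that rose were long (7546 bases, 46.2%). In the 9 ST libraries mitochondrial ribosomal RNA took from 0.0667 to 3.14% of counts and haemoglobin genes from 9.69 to 33.7%. Their part in the difference between cohorts was not tested, and batch and cohort cannot be told apart.

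In the YA cohort exenatide gave 0 called genes in either direction, 0%, with 3398 genes at an unadjusted p under 0.05 (edgeR's quasi-likelihood test, 13347 genes, 8 against 8). DESeq2's Wald test called 551 there. Of 128 LT genes tested in YA, 59 had the LT direction. Timm13 had a log2 fold change of -0.20 ± 0.25 and Rapgef3 of -0.12 ± 0.28. Classical monocyte markers had a median of 1.16 in YA beside 0.86 in LT, and platelet genes of -1.08 beside -0.61, without a member of either list passing the test in either cohort with all animals. Other lists differed in sign: erythroid genes had a median of -1.64 beside 0.24, and oxidative phosphorylation genes of -0.24 beside 0.30. Across 13244 genes the log2 fold changes of YA and LT had a Pearson's r of 0.33, again across genes that are not independent. Haemoglobin genes took from 4.7 to 42.3% of counts in the YA libraries, and their part in these values was not tested.

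The spleen, which stores and filters blood cells, was compared in the same cohort with the sequencing batch as a covariate. There 1 gene, Myo18b, rose and 0 fell after exenatide, 0.00588% and 0% of genes tested, while 2438 genes had an unadjusted p under 0.05 (edgeR's quasi-likelihood test). In spleen Timm13 had a log2 fold change of 0.11 ± 0.24, Pfdn6 of -0.07 ± 0.23, Rpl15 of -0.13 ± 0.11 and Cacna1h of -0.16 ± 0.20. Neutrophil granule genes had a spleen median of 2.32 beside 0.90 in blood, and 0 of 15 were called in spleen. Erythroid genes had a spleen median of 2.21 (25 of 25 positive) and cell proliferation genes of 1.31 (27 of 27 positive), with 0 called in either list.

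The difference between the 2 tissues was tested within the 10 animals that gave both blood and spleen. No gene passed the test in either direction (limma on the blood minus spleen log2 CPM difference of each animal, 0% of 14001 genes, smallest adjusted p = 0.175, 3185 genes at an unadjusted p under 0.05). Without B13 1028 genes were higher and 943 lower in blood relative to spleen after exenatide. With all animals the difference for Timm13 was 1.23 ± 0.38, for Rpl15 0.93 ± 0.26 and for Rapgef3 -0.56 ± 0.26.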

How the data were processed

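Poly(A) RNA of circulating white blood cells and spleen was sequenced, per the labels' protocols, after extraction with TRIzol or the RNAqueous kit and library preparation with the NEBNext Ultra II kit. The authors deposited whole-number gene counts for the LT cohort (24850 genes) and expected counts for the ST and YA cohorts (40840 genes each), which were rounded here (7.12% and 6.91% of values above 0 were not whole). Per the submitters' processing notes the build was GRCm39 and FastQC 0.11.9 was used; the aligner and counter are not given in the sources used here. Of 620 sample columns 84 were read and 536 were not used.

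Groups, animals and batches come from the sample titles and descriptions. The members and gene lists were chosen with earlier results of these data known. Counts were filtered and TMM-normalised by cohort and tissue, and all groups of a cohort entered edgeR 4.0.16's quasi-likelihood fit in R 4.3.3, with p-values adjusted over all genes tested. DESeq2 1.42.0 was an alternative, and limma 3.58.1 tested the blood minus spleen difference on log2 CPM with a prior count of 2. Blood and spleen are paired by the animal named in both titles. Own-spleen correlations of deviations from the group means ran from -0.23 to 0.28 over the 10 animals (-0.07 in B13, 0.12 in B15). For 5 of the 10 the own spleen correlated best.

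Named genes were the 8 called genes with the largest rise and fall above a set level, the 5 smallest adjusted p-values each way, up to 4 genes of smallest p per list, fixed cell markers and Glp1r; clone-like names were skipped. The called ribosomal protein genes, mt-Rnr1, mt-Rnr2, Aim2, Irf3, Chtf8, Derpc, Snrpf, Nr2f6, Myo18b and the genes high in B15 other than Tox, Tigit, Pdcd1, Lag3 and Glp1r were named after their values were seen. The labels name an animal for each library, and the liver descriptions cross B13 and B14. The fits were tested on simulated counts. Alternatives were size factors, no low-count filter, DESeq2, only the compared groups, haemoglobin genes left out, each animal left out, no batch term, a prior of 0.5 and no pairing. Removal of a length and GC trend (splines with 4 degrees of freedom, GENCODE vM21 transcripts) and the set without B13 were added after seeing the data.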

Additional observations from a re-analysis of the deposited data

Results flagged for a closer look

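Dixon's test, with a critical value of 0.71 for 5 values, was applied to 82 groups of values (a set of the named genes and both mitochondrial ribosomal RNAs, in each of the 2 aged LT groups), and 6 held an outlying library. Chance flags about 1 in 20 such groups. B13 stood apart in the exenatide group 3 times. Its Cd3e level was 160.1 CPM beside 69.83 to 95.82 CPM in the other 4 animals, its mt-Rnr1 level 14560 CPM beside 2284 to 4341 CPM, and its mt-Rnr2 level 29280 CPM beside 4828 to 8916 CPM. In each case B13 lay within the range of the aged controls.

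Among the aged controls B15 stood apart for Glp1r (7.39 CPM beside 0 to 0.2433 CPM) and for Ly6c2, a marker of classical monocytes (228.1 CPM beside 95.89 to 132.4 CPM). B34 stood apart for Ncr1, a receptor of natural killer cells (47.83 CPM beside 12.38 to 20.4 CPM).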

How the results depend on the processing

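With all 10 libraries, the 130 genes of the drug comparison became 118 with DESeq2's size factors and 133 without haemoglobin genes, but 0 without the low-count filter, 0 with only the 2 groups, 0 with the length and GC trend removed, 1509 with DESeq2's Wald test, and 3621 with B13 and B15 both left out; leaving out 1 animal gave 0 to 3309. Without B13 the count of 3309 became 1629 with only the 2 groups and 2195 with the length and GC trend removed, and 1141 to 3621 on leaving out 1 more animal (1745 without B39, 1914 without B14, 1141 without B25); leaving out haemoglobin genes moved its split to 2012 up and 1306 down. For age, the count of 4123 ran from 2586 (without B34) to 4634 on leaving out 1 animal, and without haemoglobin genes the split was 2067 up and 2497 down. For ST, the count of 1011 became 405 without the filter, 1779 with DESeq2 and 0 with only the 2 groups, and 48 to 1809 on leaving out 1 animal (129 without E13, 121 without E19, 224 without E23, 172 without E25, 48 without E31, 1809 without E32); size factors gave 613 up and 415 down, and omitting haemoglobin genes 384 and 585. DESeq2 called 551 genes in YA and 75 in spleen, where edgeR called 0 and 1 and the fit of only the 2 spleen groups 0. The blood minus spleen difference stayed at 0 genes with a prior of 0.5, without the filter, and with no replicate block (libraries taken as independent rather than paired by animal), and ran from 0 to 1971 (without B13) on leaving out 1 animal. The causes were not tested. No named gene reversed where either setting called it. At these depths genes near 3 counts, such as Glp1r outside B15, cannot be compared.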

Other observations

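The aged control B15 carried 30 genes at 4 or more times the highest level of the other 9 aged libraries, listed here as values and chosen after they were seen. Coch, a secreted protein best known from the inner ear, was at 63.0 CPM beside at most 0.821 CPM, and Penk, which encodes the proenkephalin precursor, at 15.2 CPM beside at most 0.511 CPM. Genes of exhausted or chronically stimulated T cells were high in the same library, here with the highest level of the other aged libraries in parentheses: Lag3 at 188 CPM (12.2 CPM, and up to 22.2 CPM in young controls), Tox at 111 CPM (22.3 CPM), Gzmk at 100.3 CPM (19.6 CPM), Pdcd1 at 56 CPM (8.16 CPM) and Tigit at 53.3 CPM (11.7 CPM). Pancreatic digestive enzyme genes appeared there at a low level, with Ctrb1 at 4.10 CPM, Cela2a at 3.02 CPM, Pnlip at 2.05 CPM and Cela3b and Cpb1 at 1.63 CPM, while the other aged libraries had at most 0.0568 CPM of any of them. Leaving out B15 left 0 called genes in the drug comparison, and leaving it out together with B13 left 3621.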
